A study of Mus musculus with 4 samples.

Results

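Canonical Wnt signalling was examined through 10 of its genes in a map of m6A (N6-methyladenosine, adenosine of messenger RNA that carries a methyl group) in epidermal keratinocytes of newborn mice. The genes were taken by name from the lists of m6A sites: the co-receptors Lrp5 and Lrp6, the receptor-degrading ligases Rnf43 and Znrf3, the destruction complex scaffolds Apc, Axin1 and Axin2, and the transcription factors Tcf7l1, Tcf7l2 and Lef1. These 10 genes held 30 of the 14284 listed sites, 11 of 6038 in list 1 and 19 of 8246 in list 2, and 9 of the 10 had at least 1 site. The libraries were control m6A IP, RNA fragments recovered with an antibody against m6A, and control input, the fragments before recovery, with 2 libraries in each group. All 4 libraries came from control epidermis at postnatal day 0 with the genotype K14Cre, Mettl14F/+, so every library carried the K14-driven Cre, which is active in basal keratinocytes, and 1 floxed allele of Mettl14, a subunit of the m6A methyltransferase. Which libraries made which list, and whether replicates came from separate animals, was not stated in the labels or files. No read counts per library were used, so the depth is unknown and no value below has a replicate error or a test.

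In the canonical pathway, a Wnt ligand joins a Frizzled receptor to the co-receptors Lrp5 or Lrp6. Without ligand, the destruction complex built on Apc and Axin marks β-catenin for degradation, and with ligand the complex is held at the membrane and β-catenin enters the nucleus, where it acts through Tcf and Lef factors. Rnf43 and Znrf3 remove Frizzled receptors from the cell surface, and Axin2, Rnf43, Znrf3 and Lef1 are themselves known targets of the pathway. In skin, Wnt signalling is required for hair follicle formation, and Tcf7l1, Tcf7l2 and Lef1 have known roles in follicle and epidermal progenitors.

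Of the 10 Wnt genes, Lrp6, Apc, Axin2 and Tcf7l2 carried sites in both lists, Rnf43 and Tcf7l1 only in list 1, and Lrp5, Lef1 and Znrf3 only in list 2. Axin1 had none. List 1 thus contained 6 of the 10 genes, against 18.3% of 21900 annotated protein-coding genes, and list 2 contained 7, against 22.1%. That background includes genes not expressed in skin. Among genes with a site, 4 of 9 Wnt genes (44.4%) were shared by the lists, against 39.4% of all 6625 such genes. Found only in list 1 were 2 of 9 (22.2%), against 23.8% of all, and only in list 2 were 3 of 9 (33.3%), against 36.8%. An overlapping site, sharing at least 1 base, was present in 3 of the 9 (33.3%), namely Lrp6, Axin2 and Tcf7l2, against 27.2% of all. Counted over sites, 3 of 11 in list 1 (27.3%) and 3 of 19 in list 2 (15.8%) overlapped the other list, against 36.7% and 26.8% of all sites. The counts of genes shared, overlapping or found in 1 list lay near the background. The 10 genes were long, with a median annotated span of 107978 bases against 34000 bases for 6447 genes with a site, and the part of gene length and of expression in these counts was not tested.

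Fold enrichment, which the authors give per site as IP over input, ranged in Wnt genes from 2.69 to 91.5 in list 1 (median 13.4) and from 2.13 to 272.55 in list 2 (median 8.46). The medians over all sites were 11.6 in list 1 and 11.9 in list 2. The fold was above its list's median at 7 of the 11 Wnt sites of list 1 and 8 of the 19 of list 2. Only 2 of the 30 sites, in Lrp6 and Znrf3, stood in the top 10% of their list by fold, both in list 2. The authors' false discovery rate (FDR) was below 100% at 4 of 11 Wnt sites in list 1 and 7 of 19 in list 2, against 40.8% and 48.5% of all sites. The p-value was 1e-05 or less at 9 of 11 and 14 of 19 Wnt sites, against 73.7% and 76.9% of all sites. No Wnt site had an FDR below 55.8% in list 1 or 59.5% in list 2, and no site of any gene had one below 55.7% or 51.2%.

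**Figure D1:**
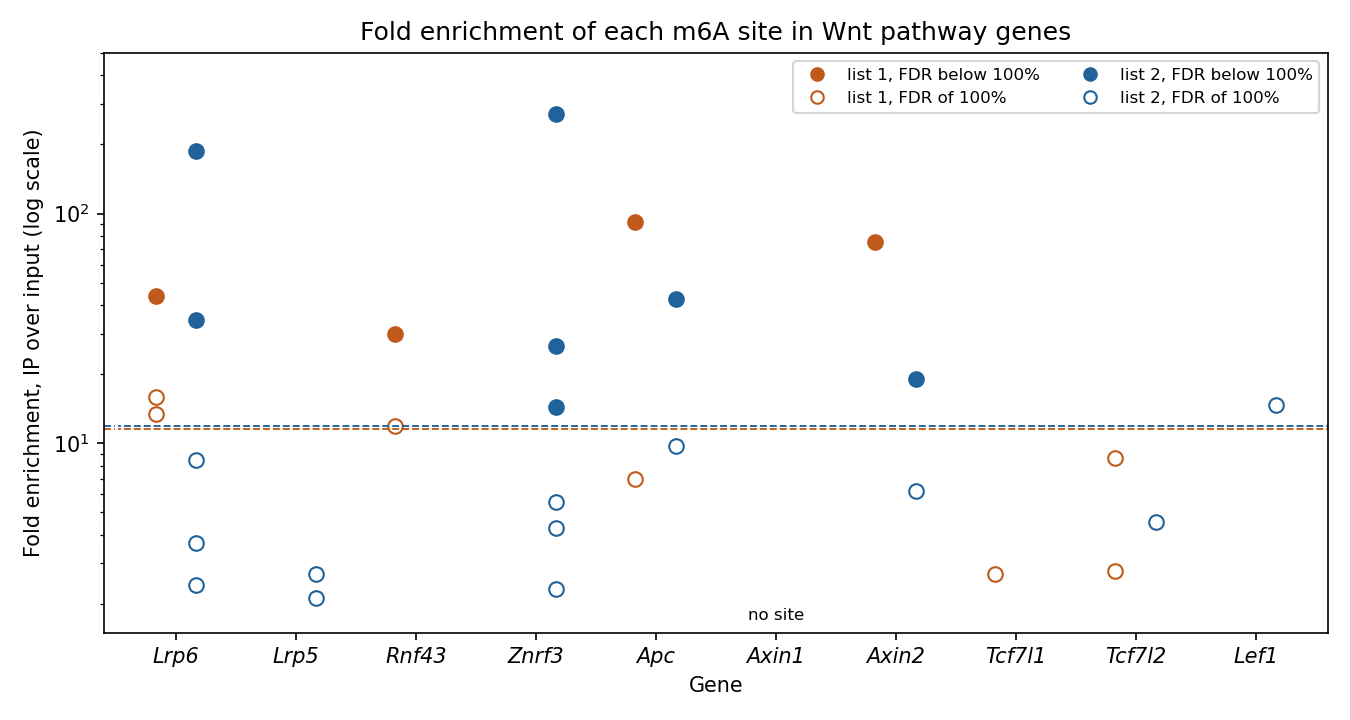
Fold enrichment (IP over input, log axis) of each site in the 10 Wnt genes, with list 1 left and list 2 right for each gene. Filled points had an FDR below 100%, open points an FDR of 100%, and the dashed lines mark the medians over all sites (11.6 in list 1 and 11.9 in list 2). Sites with an FDR below 100% are found in Lrp6, Rnf43, Znrf3, Apc and Axin2 and in none of the Tcf and Lef genes. The Tcf and Lef genes hold few sites, and only 40.8% of all sites in list 1 and 48.5% in list 2 have an FDR below 100%.

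The co-receptor Lrp6 had the most sites of the 10 genes over both lists, 3 in list 1 and 5 in list 2, where Znrf3 had 6. As many or more were held by 9.89% of the genes of list 1 and by 3.49% of the genes of list 2. In list 1 its sites lay on chromosome 6 at 134485644 to 134485852 (fold 43.9, FDR 65.1%), at 134486455 to 134486585 (fold 15.9, FDR 100%) and at 134507286 to 134507549 (fold 13.4, FDR 100%). In list 2 the strongest lay at 134486455 to 134486658, with an FDR of 59.5% and a fold of 187.74, higher than 93.3% of the sites of that list. A second site of list 2 at 134464395 to 134464570 had a fold of 34.3, at an FDR of 77.2%. The other 3 sites of list 2 had folds of 8.46, 3.67 and 2.42, each with an FDR of 100%. The sites of list 2 were spread over 92951 bases, or 77.2% of the gene, which spans 134446476 to 134566913, while those of list 1 covered 21906 bases. The upper part of the list 2 stretch rested on the sites with folds of 3.67 and 2.42. Their p-values were weak, with a -10 log10 p of 28.2 and 8.04, so the wider spread in list 2 depends on weak calls.

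One Lrp6 position was in both lists, and its values differed widely. Both lists placed a site start at base 134486455, and the whole site of list 1 lay within that of list 2. The fold was 15.9 in list 1 and 187.74 in list 2, a log2 difference of list 1 minus list 2 of -3.56. The median over 2202 overlapping pairs was 0.11 (quartiles -0.78 and 1.10). The strongest Lrp6 site of list 1 ended 602 bases below this position and overlapped no site of list 2.

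The related co-receptor gene Lrp5 had no site in list 1. Its 2 sites of list 2 lay on chromosome 19 at 3604002 to 3604182 (fold 2.71) and 3659244 to 3659370 (fold 2.13), both with an FDR of 100%. Their folds were above 13.0% and 1.18% of the sites of list 2, so Lrp5 stood near the bottom of the list. By its highest fold it ranked 4428 of 5045 genes in list 2, where Lrp6 ranked 467. The lists give no expression, so fewer sites of Lrp5 could not be told apart from fewer transcripts. Fold is a ratio to input, and whether the low folds of Lrp5 also depend on transcript number was not tested.

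The ligase genes Rnf43 and Znrf3, whose proteins act on the same receptors, were each found in a single list. Rnf43 had 2 sites in list 1 on chromosome 11, at 87664181 to 87664524 (fold 29.8, FDR 67.1%) and at 87727360 to 87727467 (fold 11.9, FDR 100%), 62835 bases apart. The first began 1094 bases from the start of the gene, which lies on the plus strand from 87663087 to 87735539, and the other ended 8072 bases before its end. Rnf43 had no site in list 2.

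Znrf3 had no site in list 1 and 6 in list 2. Its strongest site, at chromosome 11, 5287373 to 5287393, was 21 bases long, with an FDR of 59.5% and a fold of 272.55, above 95.8% of the sites of list 2. It was the highest fold of the 30 Wnt sites. The sites at 5286094 to 5286261 and 5279392 to 5279872 had folds of 26.6 and 14.4, with an FDR of 95.5% and 85.5%. The other 3 had folds of 5.57, 4.28 and 2.33 and an FDR of 100%. Of the 6 sites, 5 lay within 10776 bases, or 6.39% of the gene, beside its end with the lower coordinate, and the 6th, with the fold of 2.33, ended 358 bases from the other end. Of 102 genes with 6 or more sites in list 2, 9 (8.82%) had no site in list 1, Znrf3 among them.

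**Figure D2:**
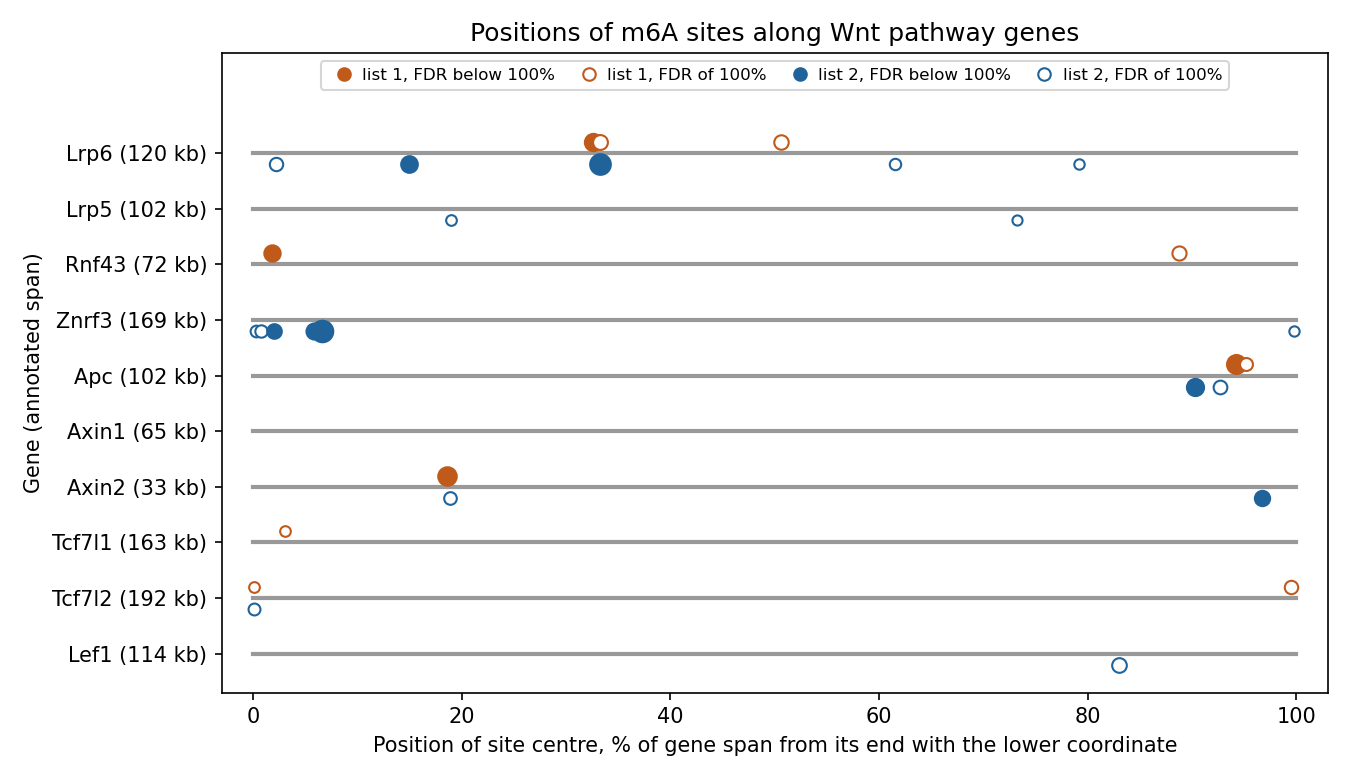
Position of each site centre as a percent of the annotated gene span, counted from the end with the lower coordinate, with list 1 above and list 2 below each line. Filled points had an FDR below 100%, open points an FDR of 100%, and larger points a higher fold. The 4 Apc sites and 5 of the 6 Znrf3 sites lie together near 1 end of the gene, the Lrp6 sites are spread, and the Tcf7l2 sites lie at the ends.

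Apc, the scaffold and tumour suppressor of the destruction complex, had 2 sites in each list and no overlap between them. In list 1 they lay on chromosome 18 at 34316143 to 34316491 (fold 91.5, FDR 55.8%) and at 34317142 to 34317462 (fold 7.01, FDR 100%). In list 2 they lay at 34312131 to 34312425 (fold 42.6, FDR 64.4%) and at 34314559 to 34314896 (fold 9.70, FDR 100%). The fold of 91.5 was the highest Wnt value of list 1, above 84.6% of its sites. All 4 sites fell within 5332 bases, or 5.23% of the gene (34220297 to 34322190), and the closest sites of different lists were 1246 bases apart. Apc was thus listed in both lists within 1 stretch of the gene span, with both sites of list 2 below both sites of list 1. Exons were not analysed, and how often other genes hold sites this close is not given here.

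The Axin genes encode the scaffold that limits the assembly of the destruction complex. Axin2 had a site in both lists that ended at the same base of chromosome 11, 108923794 to 108924102 in list 1 and 108923973 to 108924102 in list 2. Its fold was 75.5 in list 1 (FDR 55.8%) and 6.20 in list 2 (FDR 100%), a log2 difference of list 1 minus list 2 of 3.61. List 2 held a further Axin2 site at 108949269 to 108950116, 848 bases long and the longest of the 30, with an FDR of 59.5% and a fold of 19.1. It ended 667 bases before the end of the gene, which lies on the plus strand from 108917828 to 108950783 and was the shortest of the 10. Axin1, on chromosome 17 from 26131217 to 26195811, had no site in either list.

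**Figure D3:**
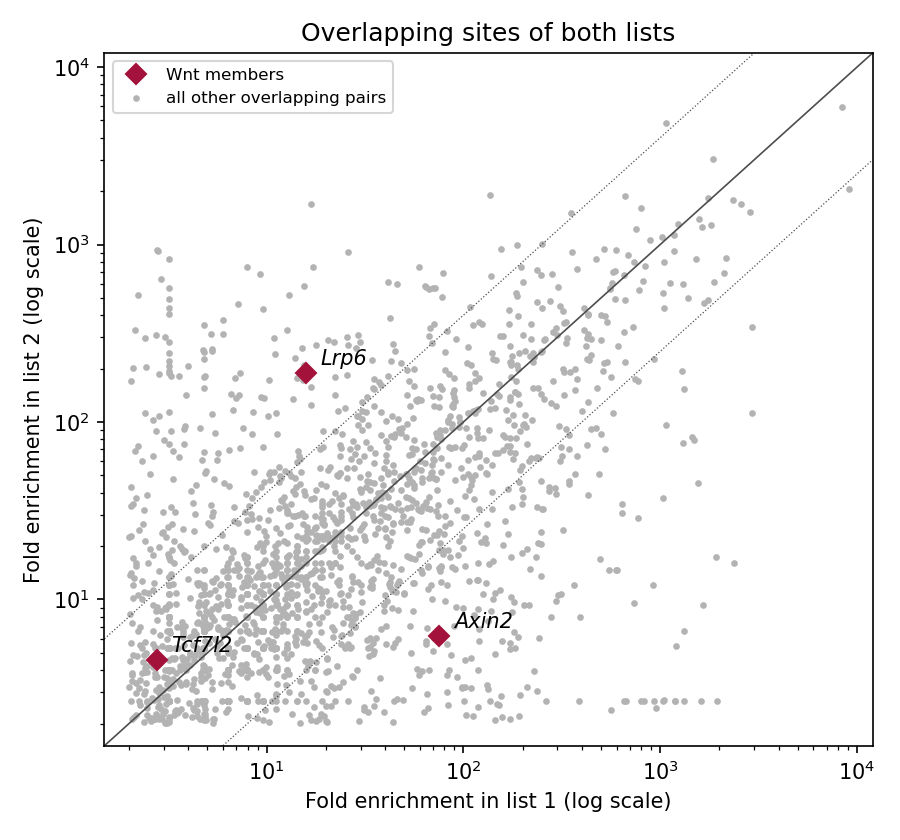
Fold enrichment in list 1 against list 2 (both log axes) for 2202 pairs of overlapping sites, with the 3 pairs in Wnt genes as diamonds. The solid line marks equal folds and the dotted lines a 4-fold difference. Lrp6 (15.9 and 187.74) lies above and Axin2 (75.5 and 6.20) below the dotted lines, and Tcf7l2 (2.77 and 4.54) lies between them.

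The 3 overlapping Wnt pairs therefore went different ways. Axin2 had the 12.2-fold higher value in list 1, and Lrp6 the 11.8-fold higher value in list 2. Tcf7l2 had the 1.64-fold higher value in list 2. Folds lay more than 10-fold apart in 11.9% of all overlapping pairs and more than 4-fold apart in 24.9%. In both genes the site of the lower value had an FDR of 100% and that of the higher value an FDR below 60%. Each of the 3 pairs shared its start or its end to the base, as did 74.3% of all pairs.

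The Tcf and Lef genes encode the DNA-binding factors at which the pathway ends, and all their sites had an FDR of 100%. These were few sites, and only 40.8% of all sites in list 1 and 48.5% in list 2 had an FDR below 100%. Tcf7l2 had 2 sites in list 1, at chromosome 19, 55741810 to 55742020 (fold 2.77) and 55932579 to 55932929 (fold 8.66). List 2 held 1, at 55741810 to 55741918, with a fold of 4.54. The first site of list 1 and the site of list 2 began at the same base. It is also a transcript start annotated in RefSeq (GRCm38.p6), 13 bases inside the annotated gene span. Among genes with a RefSeq promoter entry, 2.87% of sites in list 1 and 2.54% in list 2 began at an annotated start. The p-value at this position was weak, with a -10 log10 p of 7.35 in list 1 and 47 in list 2. The other site of list 1 ended 730 bases before the end of the gene.

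The sequence at the Tcf7l2 start is shown because it is the only place where a site in a Wnt gene met a sequence in the tables used. The first line gives the 250 bases before this start (chr19:55741560-55741809, plus strand) and ends 1 base before both sites begin. The annotated gene span begins earlier, at 55741797, so the last 13 bases of that line lie within it. The next line gives 30 bases inside both sites (chr19:55741825-55741854, plus strand), with the one match to the m6A consensus in capitals.
Tcf7l2 upstream: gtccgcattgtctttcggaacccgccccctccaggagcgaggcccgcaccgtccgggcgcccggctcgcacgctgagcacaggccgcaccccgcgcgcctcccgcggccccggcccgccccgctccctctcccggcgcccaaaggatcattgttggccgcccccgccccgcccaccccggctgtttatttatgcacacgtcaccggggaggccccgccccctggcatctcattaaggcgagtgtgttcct
Tcf7l2 within both sites: atctccgctcccAGACTactccgttcctcc

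The consensus searched is A, G or T, then A or G, then AC, then A, C or T. The match AGACT began at base 28 counted from the start at 55741810. It was the only one on the transcript strand among the first 50 bases. Of 32851 RefSeq windows of the first 50 bases, 54.4% held a match to the consensus on the transcript strand and 80.4% on either strand. AGACT itself was held by 5.14% on the transcript strand and 10.1% on either strand. The match is a description of these letters and not a mapped methylated base, since the sites ran on beyond the bases that could be read.

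The other Tcf and Lef genes had 1 site each, in opposite lists. Tcf7l1, which encodes a factor that mainly represses Wnt targets, was listed in list 1 with a fold of 2.69 (chromosome 6, 72631316 to 72631374), above 6.03% of the sites of that list. It lay 4945 bases from the 3′ end of the gene, which runs on the minus strand. Lef1, which encodes a factor of hair follicle precursors, was listed in list 2 with a site of 41 bases and a fold of 14.7 (chromosome 3, 131204933 to 131204973). That fold lay on a series of evenly spaced values at which many sites of list 2 stood, so it may not be a free ratio of reads. The remaining family member, Tcf7, had a site of a fold of 2.26 in list 1 and 2.54 in list 2 over the same interval, chromosome 11, 52282712 to 52282778, again with an FDR of 100% in both.

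The strand was given for 5 of the 10 genes (Axin2, Tcf7l1, Tcf7l2, Lef1 and Rnf43), which held 6 sites in list 1 and 4 in list 2. Read in the direction of transcription, 2 of the 6 and 1 of the 4 lay in the last 10% of the gene span, against 25.2% of 4584 and 25.5% of 6254 sites of genes with a known strand. In the first 10% lay 2 of the 6 and 1 of the 4, against 519 of the 4584 and 627 of the 6254. Positions are given within the gene span alone, since exons were not analysed here.

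Beyond these 10, sites were found in 50 of 112 other Wnt pathway genes (44.6%), grouped by role, against 28.9% of protein-coding genes, and 27 of the 50 were shared by the lists (54.0%), against 39.4% of all genes with a site. The role counts below are to be read against the same shares, and with so few genes none was tested. Of the cytoplasmic transducers, 18 of 29 were listed and 12 shared. Of the receptors and co-receptor regulators, 9 of 20 were listed and 6 shared. The nuclear partners followed with 9 of 24 listed and 5 shared, and the ligands and their secretion factors with 10 of 25 listed and 3 shared. Of the secreted inhibitors, 4 of 14 were listed and 1 was shared.

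**Figure D4:**
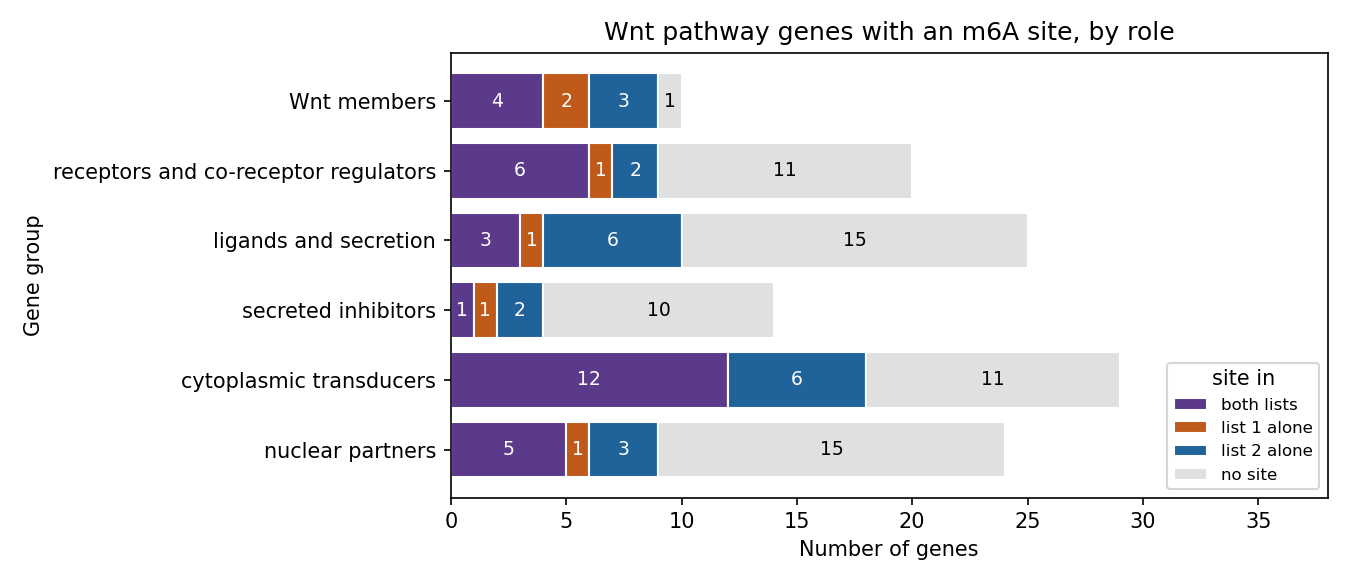
Number of genes listed by both, by list 1 alone, by list 2 alone or by neither, for the 10 Wnt genes and for 112 other pathway genes grouped by role. Cytoplasmic transducers hold the most genes in both lists (12 of 29). No site is found in 15 of 25 ligands and 10 of 14 secreted inhibitors. Only 28.9% of all protein-coding genes have a site in either list, so such absence is not particular to these roles.

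Among the transducers, Btrc, which encodes the β-TrCP subunit that recognises phosphorylated β-catenin, had folds of 517.45 in list 1 and 214.64 in list 2 over one interval. Usp34 (69.3 and 277.48), encoding a deubiquitinase of Axin, and the casein kinase gene Csnk1e (120.72 and 56.1) also had overlapping sites. The kinase gene Gsk3b had 181.63 and 6.58 at an overlapping site, with an FDR of 100% in list 2. The Gsk3b values thus lay far apart as in Axin2. Usp34 had the most sites of its group, 4 in list 1 and 5 in list 2. Ctnnb1, which encodes β-catenin, had folds of up to 8.46 at 2 sites of list 1 and 2.79 at 1 site of list 2, and none overlapped.

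Among receptors, Lrp4 (63.1 and 74.7), Ror1 (233.58 and 62.3), Fzd6 (177.2 and 33.4) and Lgr4 (14.4 and 29.9), whose protein binds R-spondins and thereby counters Rnf43 and Znrf3, had overlapping sites. Fzd6 and Lrp4 had the most sites of that group, 2 in list 1 and 4 in list 2 each. Of the ligands, Wnt8b (7.97 and 5.34) and Wnt9a (7.97 and 4.01) had an overlapping site, with an FDR of 100% and such a spaced value in both lists. Of the secreted inhibitors, Sostdc1 had one (3.38 and 16.1), with an FDR of 100% in list 1, and it and Apcdd1 had the most sites, 2 each over both lists. Of the nuclear partners, Hipk2, a kinase gene (1636 and 1247.9), Smarca4 (12.4 and 33.5) and Tcf7 had overlapping sites. That of Smarca4 had an FDR of 100% in list 1. Crebbp, which encodes a histone acetyltransferase, had 6 sites in list 1 and 2 in list 2 without overlap, the most of its group.

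Of markers for the labelled cells, 8 of 12 keratinocyte genes had a site (66.7%), among them Krt5 and Trp63, and 4 keratin genes (Krt14, Krt1, Krt10 and Krt15) had none. Sites were also found in 7 of 10 markers of dermal fibroblasts (70.0%), 3 of 7 of melanocytes, 3 of 6 of endothelium and 2 of 6 of immune cells, with 28.9% of protein-coding genes as background. Keratinocyte and fibroblast markers were thus listed at similar shares, so the site lists alone do not tell these cells apart. Genes such as Lef1 are also expressed outside the epidermis, and the part of other cells in the Wnt sites was not tested.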

How the data were processed

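MeRIP-seq was performed on control m6A IP and control input libraries of newborn mouse epidermal keratinocytes. The authors deposited 2 lists of sites, called with MACS per the site names in the files. The submitters' processing notes give GRCm38 as the build, and no label or header names an aligner or filter. Per the file headers, each deposited site has a fold ratio of IP over input, a score equal to -10 log10 of its p-value, and an FDR in percent. Positions and lengths are in bases, and 1 was added to each start. No column was tied to a library, so depth is unknown.

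Rows were selected by gene name. Sites sharing at least 1 base were called overlapping, tested on simulated lists, and each site entered 1 pair by largest overlap. Gene spans, strands and start sequences came from RefSeq (GRCm38.p6), whose promoter table held 5 of the 10 genes. Members, gene lists and alternatives were chosen with earlier results of these data known. Named genes were all 10 members, Ctnnb1, and per role up to 4 genes with an overlapping site, by the lower fold of both lists, and the gene with most sites. Of the role lists, 1 gene name (Gpr124) had no match and was left out. Alternatives were a reciprocal overlap of 50%, thresholds on p, FDR and fold, merging of touching sites and each list alone. Python 3.11.15, pandas 2.3.3, numpy 2.4.6 and matplotlib 3.10.9 were used.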

Additional observations from a re-analysis of the deposited data

How the results depend on the processing

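No paired analysis was possible because the deposited lists carry no values per library and are tied to no replicate. They are labelled sample 1 and sample 2, but whether these labels match the replicates is not stated. No list could therefore be left out as a replicate. Counting Wnt genes in list 2 alone gave 7 and in list 1 alone 6, against 4 required in both. With sites of an FDR below 100%, Lrp6, Apc and Axin2 were still in both lists (3 of 5 Wnt genes, against 25.9% of all 3568 genes). Overlap was found for 0 of the 5 genes, against 15.4% of all. It was found for 0 of the 4 Wnt sites left in list 1 and 0 of the 7 in list 2. So few genes and sites were left that neither these counts of 0 nor the 3 of 5 can separate Wnt genes from the background. The median fold of these Wnt sites was 59.7 in list 1 and 34.3 in list 2. When each list was restricted to its upper 50% by fold, 3 of 6 Wnt genes were in both (against 30.7% of all 3809). Overlap was then found for 1 of the 6 genes, against 19.4% of all. It was found for 1 of 7 Wnt sites in list 1 and 1 of 8 in list 2, and the medians were 29.8 and 30.5. No share of all sites under these filters is given here, so the counts of Wnt sites cannot be set against a background. The 6 genes left in the upper 50% are also too few to separate Wnt genes from the background. With p of 1e-05 or less the median of list 2 was 14.5. At that threshold 3 of 8 Wnt genes were in both lists, near the 34.6% of all 5224 genes. Overlapping sites were found in 2 of the 8, near the 21.7% of all. The medians are higher in such subsets by construction, since weak sites are left out. All other values, including those with touching sites merged, lay within 1.5 times the reported ones. Among these, 2 Wnt genes rather than 3 overlapped at a reciprocal overlap of 50%. Axin2 was lost, with 42.1% of its list 1 site shared. The share over all genes at that setting is not given here.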

Other observations

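The deposited annotation assigned the term Wnt signalling pathway to 42 genes of list 1 and 54 of list 2, 67 in all. Of these, 29 were in both lists (43.3%, against 39.4% of all genes with a site). Overlap between the lists was seen for 21 of the 67, and its share over all 6625 genes was 27.2%. The term covered 7 of the 9 Wnt genes with a site and left out Rnf43 and Znrf3. The ligases would thus be missed by a selection on that term.

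Many low folds in the lists were repeated values. In list 1 the fold was exactly 3.19 at 557 sites (9.22%) and 4.78 at 216, and in list 2 it was 2.67 at 592 sites (7.18%) and 4.01 at 241. The most frequent values were multiples of 1.59 in list 1 and 1.34 in list 2. Of all sites, 20.6% of list 1 and 19.4% of list 2 lay within 0.01 of a multiple from 2 to 20, and 11 and 31 of these had an FDR below 100%. Among the 30 sites in Wnt genes, 1 lay on such a value, the Lef1 site (14.7, multiple 11). Among other Wnt pathway genes, the overlapping sites of Csnk1g1 (7.97 and 5.34), Wnt8b (7.97 and 5.34) and Wnt9a (7.97 and 4.01) did so in both lists. The lists give no input reads per site, so whether these folds are measured ratios or depend on a floor for the input is not known. This pattern was noticed after the values were seen, and its cause was not tested.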
